A study of Mus musculus with 14 samples.

Results

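The irradiation effect on each gene of the mouse heart was measured at 1 day and again at 6 weeks, and the 2 effects were subtracted from each other. The change in effect is (IRR_6w minus Control_6w) minus (IRR_1d minus Control_1d) on the log2 scale, so that a change of 1 is a 2-fold rise of the irradiated to control ratio from 1 day to 6 weeks. All 14 of 14 RNA-seq libraries entered 1 model, and 16034 of the 54532 genes in the count table had enough counts to be tested. Every library came from the heart of 1 male C57BL/6J mouse, 8 weeks old at the start and of wild-type genotype. IRR_1d (n = 3) and IRR_6w (n = 4) received 30 Gy of 60Co γ-rays on the anterior chest under pentobarbital anaesthesia, with the rest of the body behind lead, and hearts were taken after 1 day or 6 weeks. Control_1d (n = 3) and Control_6w (n = 4) were not irradiated and were taken at the same times, and whether they were anaesthetised was not given in the sources used here. The exposed field was the anterior chest and not the heart alone, and in heart tissue taken in bulk a smaller number of cells of a type and less RNA per cell cannot be told apart.

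Radiation breaks DNA, and within hours the p53 protein switches on genes that halt the cell cycle, repair DNA or trigger death. In the irradiated heart the small vessels, resident immune cells and fibroblasts are known to react over weeks, with loss and regrowth of capillaries, entry of monocytes from blood and deposition of collagen. Interferon signalling and antigen presentation are immune programmes that damaged tissue can also switch on. The comparison of 1 day with 6 weeks asks which of these responses belong to the acute phase, which to the late phase and which run in opposite directions.

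No gene passed the test for a change in effect at a fold over 2 and a Benjamini-Hochberg adjusted p under 0.05 in edgeR's quasi-likelihood test, which is 0% of the genes tested. The smallest adjusted p was 0.0673. At an unadjusted p under 0.05 the same test gave 504 genes (3.14% of those tested, against a threshold of 5%), of which 458 also had a fold over 2, and these 458 are described below as a ranking and not as calls. DESeq2 called 43 genes at adjusted p, limma-voom 0, and limma-voom with weights for library quality 18. Of the 458, 317 had a higher effect at 6 weeks than at 1 day (1.98% of genes tested) and 141 a lower one (0.879%), together 2.86%. The median change over all genes was -0.15, and with scaling to library totals it was 0.00, which moved the share of higher genes from 69.2% to 79.5%. The majority direction depended on the test and the libraries. Lower genes outnumbered higher ones with limma-voom (726 against 242), with quality weights (1440 against 778), without a count filter (732 against 449) and without Control_1d replicate 3 (513 against 381), and the numbers were close without IRR_6w replicate 1 (386 higher, 376 lower) and without IRR_6w replicate 2 (355 and 331).

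Among the 458 genes the effect reversed in 237, that is, the effects at the 2 times had opposite signs and both were at least 0.5 in log2. It grew in 169, where the effect at 6 weeks was the larger, and faded in 52, where that at 1 day was the larger. Of the reversed genes, 154 were below control at 1 day and above it at 6 weeks, with median effects of -1.24 and 1.47, and 83 went the other way, with medians of 1.92 and -2.09. In this fit growth was upward in 141 genes and downward in 28. Fading was more even, with 22 genes that had been low at 1 day and 30 that had been high. Ciita, H2-DMb1, H2-Ob, Gas6, Npnt, Pxdn, Col1a1, Col3a1, Postn, Ephx1, Bax, Trp53inp1, Dbp, Nr1d1, Arntl, Mki67, Top2a, mt-Cytb, Slc4a1, Hba-a1, Gapdh and Angptl4 are named below after their values were seen, and the other genes by a rule on p and list membership. The unadjusted p stayed under 0.05 in each of the 14 fits that left out 1 library for 159 of the 458 genes.

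**Figure D1:**
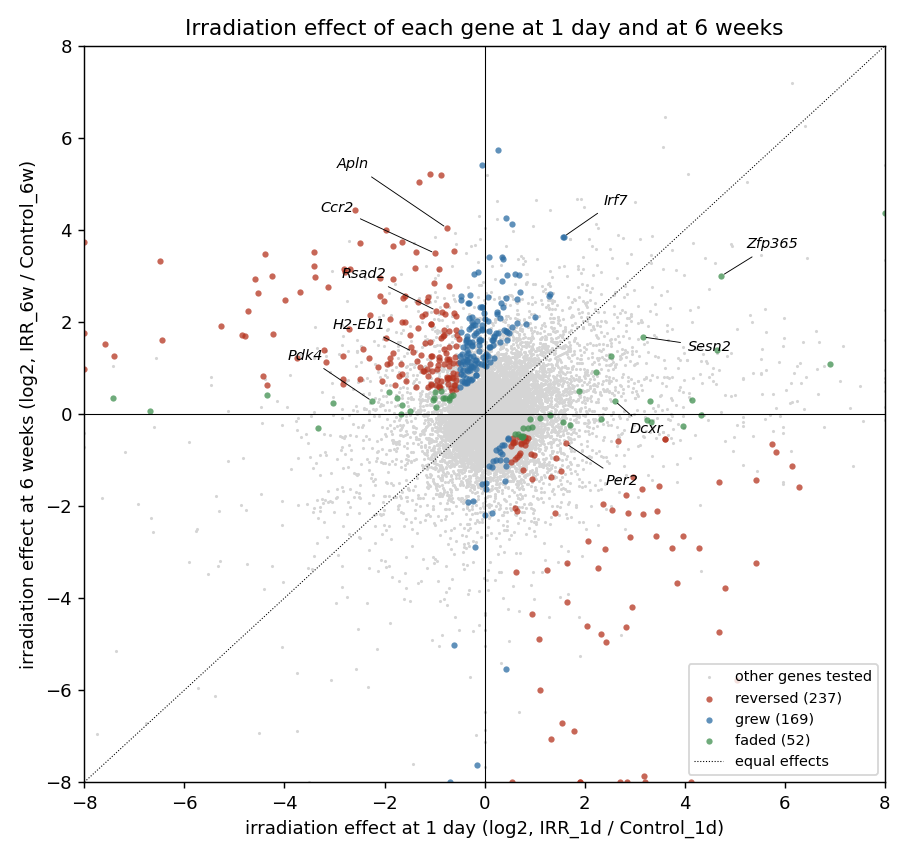
Log2 irradiation effect of each tested gene at 1 day (horizontal axis) and at 6 weeks (vertical axis). Colours mark the 237 reversed, 169 grown and 52 faded genes, grey points are the other genes tested, the dotted line marks equal effects, and points beyond 8 are drawn at the edge. Most coloured points lie above the dotted line, and the reversed group fills the upper left of the plot.

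Because the change is a difference of differences, it can come from the irradiated groups or from the controls. In 181 of the 458 genes (39.5%) the control groups differed more between the 2 times than the irradiated groups did, against 52.4% of all genes tested. The share was 32.0% for grown, 43.9% for reversed and 44.2% for faded genes. Values of all 4 groups are therefore given for each gene described in detail, in CPM, that is, counts scaled to library size and TMM factor.

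Library depth ran from 13336746 to 16837265 counts. Several libraries stood apart. Control_6w replicate 3 held 4149 CPM of thymus genes, where no other library passed 59.8. Lung epithelium genes summed to 430 CPM in IRR_6w replicate 1 and to at most 33.7 elsewhere, and atrial genes to 3550 CPM there and 2542 in IRR_1d replicate 3. White fat genes summed to 508, 539 and 1337 CPM in IRR_1d replicate 3, Control_6w replicate 3 and IRR_6w replicate 1, and to at most 47.3 elsewhere. IRR_1d replicate 3 held little of the thymus or lung genes (1.72 and 0.330 CPM). It had the highest interferon and matrix sums of IRR_1d (3389 and 13356 CPM), so leaving it out also removes those values. Transcripts of testis germ cells summed to 54.7 to 78.2 CPM in 3 of the 4 Control_6w libraries and to at most 0.301 elsewhere. In Control_1d replicate 1, IRR_6w replicate 3 and IRR_6w replicate 4, 29.6%, 20.4% and 8.01% of the genes with 2 to 5 CPM had 0 counts, against at most 1.58% in the others. Cardiomyocyte genes were abundant throughout, from 5268 to 49876 CPM summed over 9 markers, lowest in Control_6w replicate 3. Without IRR_1d replicate 3, Control_6w replicate 3 and IRR_6w replicate 1 together, called below the 3 libraries with other-tissue transcripts, edgeR gave 29 genes at adjusted p and 885 at unadjusted p with a fold over 2, and 4.32% of genes tested were higher at 6 weeks and 1.24% lower. Control_6w replicates 1 and 2, which held germ cell transcripts, stayed in that fit, and the germ cell list had a median change of -9.98 there. Without the 3 libraries with many genes at 0 it gave 0 and 283, with 1.14% higher and 0.568% lower. The part of these features in the results below was not tested beyond the values given with and without the libraries.

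**Figure D2:**
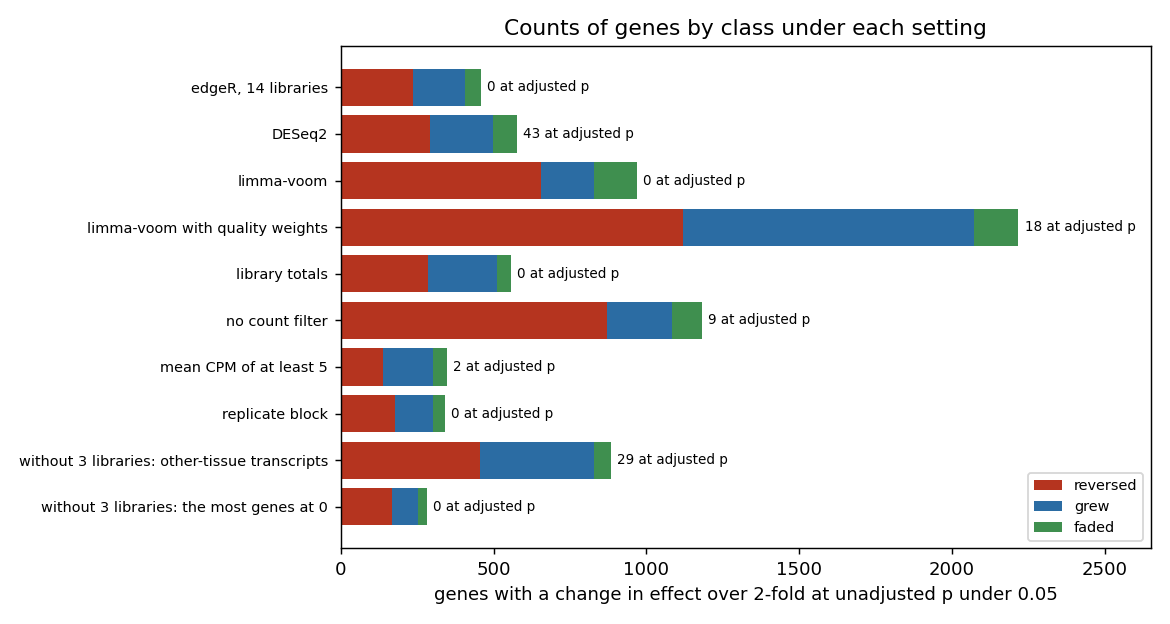
Number of genes with a change in effect over 2-fold at unadjusted p under 0.05 (horizontal axis) under 10 settings, split into reversed, grown and faded genes. The number beside each bar is the count at adjusted p, which runs from 0 to 43, and the bars run from 283 to 2218 genes against 458 in the edgeR fit of 14 libraries.

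The reversal with the smallest p was in MHC class II genes, which encode the molecules that show peptides to CD4 T cells and are made by B cells, dendritic cells and activated macrophages. All 13 genes of this list had a higher effect at 6 weeks, as 41.4% of all genes tested did. Of the 13, 8 had p under 0.05 and a fold over 2 (7 reversed, 1 grown, 61.5% of the list), against 1.98% of all genes. The median effect was -1.22 at 1 day and 0.94 at 6 weeks, and the median change was 2.09 against -0.15 over all genes. Summed over the list, the level was 394, 300.3 and 404 CPM in Control_1d, 179.7, 147 and 217 in IRR_1d, 401, 605, 567 and 528 in Control_6w and 983, 1449, 980.1 and 1053 in IRR_6w. Every irradiated heart lay below every control at 1 day and above every control at 6 weeks. The count was 8 of 11 tested genes without the 3 libraries with other-tissue transcripts, against 4.32% of all genes. Without the 3 libraries with many genes at 0 it was 8 of 13, against 1.14%. With any 1 library left out it stayed between 6 and 8, with a median of 1.80 to 2.22.

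H2-Eb1 (chr17:34305877-34316199, mm10), which encodes the beta chain of the I-E molecule, had the smallest p of all genes. It measured 61.7, 38.1 and 59.9 CPM in Control_1d, 21.97, 15.02 and 22.1 in IRR_1d, 86.6, 86.8, 59.8 and 75.2 in Control_6w and 130.1, 213, 213 and 229.9 in IRR_6w. The effect was -1.43 ± 0.29 (SE) at 1 day and 1.35 ± 0.25 at 6 weeks, a change of 2.79 ± 0.39 with an unadjusted p of 4.19e-06 and an edgeR adjusted p of 0.0673. Irradiated and control libraries did not overlap at either time, and the irradiated groups moved more between the times (3.32) than the controls (0.53). The adjusted p ranged from 1.86e-08 to 0.588 over the alternatives tried. H2-Aa (chr17:34282744-34287827), the alpha chain of I-A, followed with 77.7, 46.1 and 60.4 CPM in Control_1d, 24.7, 20.5 and 26.6 in IRR_1d, 82.9, 118, 88.8 and 86.6 in Control_6w and 155, 272, 169 and 234 in IRR_6w. Its change was 2.499 ± 0.38 with an edgeR adjusted p of 0.0812 (5.95e-07 to 0.677 over the alternatives tried), again without overlap at either time.

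H2-Ab1, the beta chain of I-A, and Cd74, the invariant chain that keeps the groove closed until the molecule reaches the endosome, showed the same order of groups. Cd74 measured 168, 153 and 184 CPM in Control_1d, 69.1, 58.4 and 88.5 in IRR_1d, 140.4, 274, 239.8 and 257 in Control_6w and 449.9, 608, 338 and 352 in IRR_6w. H2-Ab1 measured 30.03, 25.9 and 48.1 CPM in Control_1d, 16.8, 12.4 and 15.6 in IRR_1d, 44.8, 67.6, 89.4 and 52.7 in Control_6w and 98.5, 163, 128 and 97.99 in IRR_6w. Their changes were 2.17 ± 0.41 and 2.16 ± 0.43, and the groups were apart at both times for each. Ciita, the master transcriptional activator of this gene set, was low throughout at 2.32 to 3.32 CPM in Control_1d against 0.858 to 1.92 in IRR_1d, and at 3.27 to 8.03 in Control_6w against 6.74 to 12.5 in IRR_6w, a change of 1.92 ± 0.703. H2-DMb1, part of the DM molecule that loads peptides, had a change of 2.09 ± 0.71, and H2-Ob, part of the DO molecule that restrains DM, of 3.59 ± 1.43 at no more than 5.18 CPM. Ctss, the protease that trims Cd74, overlapped with control at 1 day (0.18 ± 0.29) and lay above every control at 6 weeks (1.66 ± 0.26), so that it was counted as grown.

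B cells, which make class II in steady state, had their own markers counted beside these genes. All 4 B cell genes with p under 0.05 and a fold over 2 reversed in the same direction among 24 tested, against 1.98% of all genes that met the limits as higher, with a median change of 2.97. The count was 5 of 22 without the 3 libraries with other-tissue transcripts (4.32% of all genes) and 10 of 24 without those with many genes at 0 (1.14%). Their summed level was 374, 34.8 and 62.2 CPM in Control_1d, 31.8, 43.7 and 31.8 in IRR_1d, 51.99, 40.5, 824 and 54.6 in Control_6w and 990.4, 115, 119.7 and 103 in IRR_6w. The 3 high libraries were Control_1d replicate 1, Control_6w replicate 3 and IRR_6w replicate 1, and their class II sums were 394, 567 and 983 CPM. Ms4a1, which encodes the B cell surface protein CD20, measured 16.1, 0.906 and 1.77 CPM in Control_1d, 0, 0.601 and 0.0661 in IRR_1d, 3.65, 0.995, 4.56 and 2.36 in Control_6w and 22.8, 3.49, 9.67 and 1.995 in IRR_6w. Its change was 6.56 ± 1.78 and ranged from 4.34 (without Control_1d replicate 1) to 8.95 with 1 library left out, while Ighd had a change of 4.98 ± 1.37. The part of B cells in the class II values was not tested.

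The 5′ ends of the class II genes are shown because their promoters are known to share an upstream block that ends in the Y box, an inverted CCAAT read as ATTGG on the gene's strand. RefSeq promoter windows (GRCm38.p6, 250 bases before to 50 after the start) were found for 10 of the 13 genes. CCAAT occurred on either strand in 8 of the 10, against 37.4% of 32851 windows of the same length. The last 120 bases before the start are printed on the gene's strand for 2 genes with the smallest p (H2-Eb1 at chr17:34305747-34305866, plus strand, and H2-Aa at chr17:34287824-34287943, minus strand) and for 2 of the accessory genes (H2-DMb1 at chr17:34153071-34153190 and H2-Ob at chr17:34238785-34238904, both plus strand), with every CCAAT or ATTGG in capitals.
H2-Eb1: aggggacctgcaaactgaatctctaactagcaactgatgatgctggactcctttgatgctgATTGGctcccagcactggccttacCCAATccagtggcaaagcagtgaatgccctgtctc
H2-Aa: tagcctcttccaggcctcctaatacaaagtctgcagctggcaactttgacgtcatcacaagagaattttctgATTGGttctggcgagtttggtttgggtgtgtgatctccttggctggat
H2-DMb1: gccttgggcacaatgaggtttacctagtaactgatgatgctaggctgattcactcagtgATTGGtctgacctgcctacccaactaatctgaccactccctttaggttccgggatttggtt
H2-Ob: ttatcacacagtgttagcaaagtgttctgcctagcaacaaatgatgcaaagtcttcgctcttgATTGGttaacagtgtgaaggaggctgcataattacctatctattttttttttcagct
In all 4 an ATTGG begins between 61 and 48 bases before the start, and H2-Eb1 holds a second match on the other strand at 35 bases before it. A match of 5 letters is a description of the window and not a measured binding site.

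**Figure D3:**
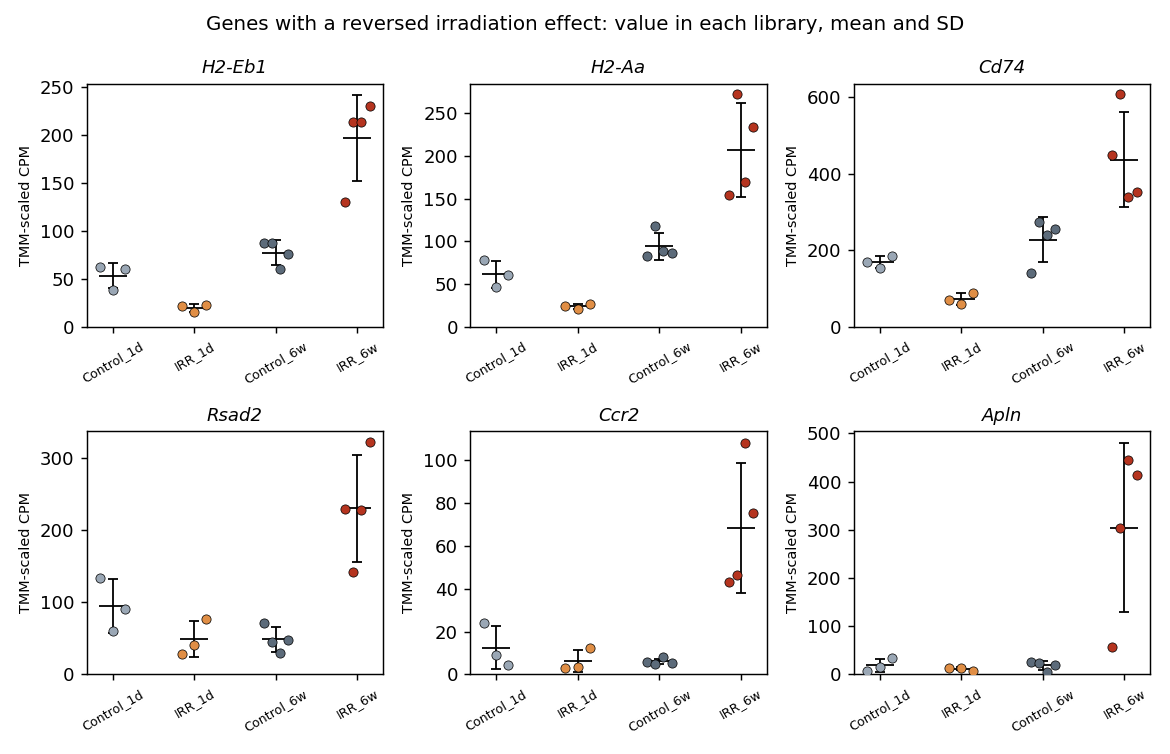
TMM-scaled CPM (vertical axes, from 0) of 6 genes with a reversed effect in each library of the 4 groups. Points are libraries, horizontal marks are means and bars are SDs. For H2-Eb1, H2-Aa and Cd74 the irradiated libraries lie below the controls at 1 day and above them at 6 weeks, while Rsad2, Ccr2 and Apln are set apart at 6 weeks only.

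Interferon-stimulated genes grew more than they reversed. Of 48 tested, 9 had p under 0.05 and a fold over 2, all higher at 6 weeks (8 grown, 1 reversed), against 1.98% of all genes. Changes above 0 numbered 43 of 48, against 41.4% of all genes tested. The median effect was 0.70 at 1 day and 1.44 at 6 weeks, with a median change of 0.83. The summed level was 1495, 1146 and 1325 CPM in Control_1d, 1383, 1607 and 3389 in IRR_1d, 1304, 1085, 1328 and 1185 in Control_6w and 2027, 3589, 4171 and 5166 in IRR_6w. At 6 weeks every irradiated library was above every control, whereas at 1 day the groups overlapped and IRR_1d replicate 3 alone reached the level of the later hearts. Without that library 23 of the 48 genes met the limits, against 2.35% of all genes, and without the 3 libraries with other-tissue transcripts 33 did, against 4.32%, 7 of them at an edgeR adjusted p under 0.05. Without the 3 libraries with many genes at 0, which include 2 of the 4 IRR_6w libraries, 3 did, against 1.14%, and the median was 0.20.

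Rsad2, which encodes the antiviral enzyme viperin, was the reversed member. It measured 134, 60.1 and 91.1 CPM in Control_1d, 28.5, 41.2 and 76.7 in IRR_1d, 71.7, 44.9, 29.6 and 47.97 in Control_6w and 229, 142, 229 and 322 in IRR_6w, with a change of 3.21 ± 0.58 and an edgeR adjusted p of 0.343 (0.000157 to 0.99997 over the alternatives tried). All 4 IRR_6w values exceeded every other library. Oas1a, a sensor of double-stranded RNA, measured 10.3, 8.66 and 9.24 CPM in Control_1d, 9.67, 9.61 and 19.4 in IRR_1d, 6.85, 4.44, 2.68 and 3.503 in Control_6w and 9.66, 30.6, 41.5 and 60.9 in IRR_6w and had a change of 2.58 ± 0.72. Irf7, the transcription factor that amplifies the interferon response, measured 11.7, 11.2 and 28.04 CPM in Control_1d, 24.4, 23.7 and 104 in IRR_1d, 8.75, 14.5, 9.29 and 10.8 in Control_6w and 56.7, 240.01, 142 and 185 in IRR_6w. Its effect went from 1.58 ± 0.61 to 3.85 ± 0.57, a change of 2.27 ± 0.796 that became 3.34 without IRR_1d replicate 3 and 3.56 without the 3 libraries with other-tissue transcripts. Ddx60, an RNA helicase of the same response, had a change of 2.48 ± 0.76. The change of Ddx60 was 0.90 and that of Oas1a 1.68 without the 3 libraries with many genes at 0. Ifit3 showed how far a single library could set a gene, with 40.6, 33.99 and 232 CPM in IRR_1d. Its change was 0.84 ± 0.84 with all libraries, 2.28 without IRR_1d replicate 3, 0.38 to 0.56 without IRR_1d replicate 1 or 2 or Control_1d replicate 1, and 0.14 without the 3 libraries with many genes at 0.

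The interferon-stimulated response element, the site of IRF factors, has the core GAAANNGAA, and promoters of 3 of these genes are shown as examples of windows that hold it. Windows were found for 36 of the 50 listed genes, and 18 of the 36 (50%) held the core on either strand, against 8.56% of all windows. Printed are 130 bases before the start of Rsad2 (chr12:26456453-26456582, minus strand), Oas1a (chr5:120907526-120907655, minus strand) and Ddx60 (chr8:61927957-61928086, plus strand), on the gene's strand with the core, or its reverse complement TTCNNTTTC, in capitals.
Rsad2: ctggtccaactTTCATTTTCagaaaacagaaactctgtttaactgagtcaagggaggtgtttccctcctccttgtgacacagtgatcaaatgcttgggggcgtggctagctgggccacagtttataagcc
Oas1a: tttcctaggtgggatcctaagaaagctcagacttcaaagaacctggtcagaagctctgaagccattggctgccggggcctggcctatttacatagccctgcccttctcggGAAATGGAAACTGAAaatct
Ddx60: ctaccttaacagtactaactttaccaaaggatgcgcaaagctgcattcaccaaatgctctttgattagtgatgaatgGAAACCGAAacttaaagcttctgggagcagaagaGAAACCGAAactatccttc
Rsad2 holds the core in reverse at 119 bases before the start. Oas1a has a pair that overlaps by 3 bases within 20 bases of the start, and Ddx60 holds separate copies at 53 and 19 bases before it. The RefSeq window of Irf7 did not hold these letters.

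The GTPases induced by interferon gamma, guanylate-binding proteins and immunity-related GTPases, had a median effect above 0 at both times. It was 0.92 at 1 day and 1.39 at 6 weeks, and 4 of 23 met the limits, all higher at 6 weeks, against 1.98% of all genes. The median change was 0.36. Leaving out the 3 libraries with other-tissue transcripts gave 10 of 23 (against 4.32% of all genes) and a median change of 1.41. The values were 1 of 23 (against 1.14%) and 0.05 without those with many genes at 0. F830016B08Rik, a member of the immunity-related GTPases, measured 13.5, 5.94 and 10.48 CPM in Control_1d, 19.7, 12.4 and 11.8 in IRR_1d, 2.28, 3.596, 1.595 and 5.93 in Control_6w and 11.8, 72.6, 64.4 and 85.3 in IRR_6w, a change of 3.57 ± 0.82. From 1 day to 6 weeks its controls differed by -1.58 and its irradiated groups by 1.99. Irgm1 and Iigp1, also immunity-related GTPases, had a change of 1.43 ± 0.51 and 1.33 ± 0.57, and that of Iigp1 was 0.69 without Control_1d replicate 1. Without those with many genes at 0 the changes were 0.89 and 0.37. Of the class I presentation genes 1 of 21 met the limits, as higher, against 1.98% of all genes, and the median change was 0.15. Without the 3 libraries with other-tissue transcripts the values were 5 of 21 (against 4.32%) and 0.72. They were 0 of 21 (against 1.14%) and 0.05 without the 3 with many genes at 0.

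Genes of monocytes and recruited macrophages followed the late pattern. Of 29 tested, 9 met the limits (3 reversed, 6 grown), all higher at 6 weeks, against 1.98% of all genes, and the median effect went from 0.32 to 1.38. Their summed level was 1012, 679 and 739 CPM in Control_1d, 855, 831 and 933 in IRR_1d, 706, 695, 1311 and 773 in Control_6w and 1439, 1752, 1899.7 and 2073 in IRR_6w. At 6 weeks all irradiated hearts were above all controls, the nearest control being Control_6w replicate 3, and at 1 day the groups overlapped. The list gave 14 of 29 without the 3 libraries with other-tissue transcripts, against 4.32% of all genes, and 6 of 29 without those with many genes at 0, against 1.14%.

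Ccr2, the chemokine receptor that lets monocytes leave the marrow and enter tissue, measured 23.8, 8.96 and 4.62 CPM in Control_1d, 2.8998, 3.605 and 12.4 in IRR_1d, 6.01, 4.97, 7.92 and 5.32 in Control_6w and 43.1, 46.3, 108 and 75.6 in IRR_6w. Its effect was -0.99 ± 0.61 at 1 day and 3.49 ± 0.57 at 6 weeks, a change of 4.48 ± 0.83 (edgeR adjusted p = 0.343, and 0.000192 to 0.99997 over the alternatives tried). The 4 IRR_6w hearts were above all 10 others, and Control_1d replicate 1 was the highest of those. Cybb, the catalytic subunit of the phagocyte oxidase, measured 55.9, 37.3 and 29.5 CPM in Control_1d, 18.7, 29.6 and 32.1 in IRR_1d, 33.9, 21.4, 15.4 and 26.5 in Control_6w and 51.6, 74.4, 150.04 and 173 in IRR_6w and had a change of 2.81 ± 0.59, or 1.69 without the libraries with many genes at 0. Cx3cr1, the fractalkine receptor of patrolling monocytes and many tissue macrophages, measured 9.03, 6.75 and 14.5 CPM in Control_1d, 2.13, 2.75 and 3.57 in IRR_1d, 5.02, 3.596, 3.65 and 6.94 in Control_6w and 5.23, 19.2, 16.2 and 7.89 in IRR_6w and had a change of 3.17 ± 0.73, with no overlap at 1 day and overlap at 6 weeks. Mpeg1, a pore-forming protein of macrophages, overlapped with control at 1 day (-0.05 ± 0.405) and lay above it at 6 weeks (1.85 ± 0.36).

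Resident cardiac macrophage genes had a median change that depended on the libraries. Their median effect was 0.84 at 1 day and 0.65 at 6 weeks, and 1 of 12 met the limits (lower at 6 weeks, as 0.879% of all genes did). Changes above 0 numbered 3 of 12, against 41.4% of all genes tested. The median change was -0.55 with all libraries. Without the 3 libraries with other-tissue transcripts 3 of 11 met the limits as lower, against 1.24% of all genes, and the median change was -1.05. It was 0.07 without the 3 libraries with many genes at 0, between medians of 0.71 and 0.96. There 7 of 12 changes were above 0, against 40.7% of all genes tested. The gene that met them was Gas6, a ligand that helps macrophages take up dead cells, with a change of -1.33. Summed, they reached 599.6, 468 and 515 CPM in Control_1d and 1167, 847 and 1502 in IRR_1d, so the irradiated hearts were above controls at 1 day without overlap, and they were 494, 517, 327 and 553 CPM in Control_6w and 939.9, 817, 593 and 752 in IRR_6w, again without overlap. Chemokines and their receptors gave 7 of 32, all higher at 6 weeks (2 reversed, 4 grown, 1 faded), against 1.98% of all genes, with medians of 0.07 and 1.35. Without either set of 3 libraries the counts were 11 of 30 and 3 of 32, against 4.32% and 1.14% of all genes. Among them Ccl7, a ligand of Ccr2, had a change of 2.35 ± 0.96, or 0.41 without the libraries with many genes at 0.

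Vessel genes gave some of the largest changes. In the angiogenesis and tip cell list 6 of 38 met the limits, all higher at 6 weeks (3 reversed, 2 grown, 1 faded), against 1.98% of all genes, and the median effect went from -0.21 to 0.30. With Control_1d replicate 3 left out 3 of 38 met them, where 381 of all 17005 genes tested did as higher and 513 as lower. Without the 3 libraries with other-tissue transcripts the medians were -0.15 and 0.09, the median change went from 0.47 to 0.22, and 7 met the limits as higher (4.32% of all genes) and 1 as lower (1.24%). Without those with many genes at 0, 4 of 38 did, all higher, against 1.14%. Apln encodes apelin, a peptide that sprouting endothelial tip cells release, and measured 7.77, 15.3 and 34.5 CPM in Control_1d, 12.3, 14.1 and 7.797 in IRR_1d, 25.4, 24.3, 4.96 and 19.4 in Control_6w and 57.3, 303, 444 and 414 in IRR_6w. The change was 4.79 ± 0.97 (edgeR adjusted p = 0.3702, and 0.000157 to 0.99997 over the alternatives tried), with IRR_6w replicate 1 nearest to its controls and overlap at 1 day only. Esm1, the tip cell proteoglycan endocan, measured 7.65, 2.82 and 3.39 CPM in Control_1d, 1.22, 2.57 and 1.85 in IRR_1d, 4.49, 1.91, 2.05 and 2.09 in Control_6w and 5.18, 14.5, 259 and 70.7 in IRR_6w. Although its change was 6.36 ± 1.401 and the groups did not overlap at either time, the IRR_6w values ran from 5.18 to 259 and the lowest was only just above its controls. The 2 highest came from IRR_6w replicates 3 and 4, and without the 3 libraries with many genes at 0 the change was 2.62. Adamts1, a protease that limits sprouting, had a change of 1.52 ± 0.54, and Mcam, an endothelial adhesion molecule, of 1.23 ± 0.42, which was 0.81 without Control_1d replicate 3.

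The basement membrane that capillaries rest on showed the same direction. Of 23 genes, 4 met the limits as higher at 6 weeks and 1, the matrix ligand nephronectin (Npnt, -4.22), as lower, against 1.98% and 0.879% of all genes, and the median effect went from -0.04 to 0.56. The counts were 2 and 0 without the 3 libraries with many genes at 0, against 1.14% and 0.568% of all genes. Col4a1, a chain of collagen IV, measured 477, 719 and 903 CPM in Control_1d, 373, 384 and 436 in IRR_1d, 575, 687, 205 and 639 in Control_6w and 511, 1286, 1448 and 1241 in IRR_6w. Irradiated hearts were below every control at 1 day and, apart from IRR_6w replicate 1, above every control at 6 weeks, a change of 1.91 ± 0.602. Its partner Col4a2 had a change of 1.8999 ± 0.64, the linker Nid2 of 2.16 ± 0.66 and the laminin chain Lama4 of 1.28 ± 0.45. Pxdn, the peroxidase that cross-links collagen IV, measured 148, 149.8 and 176 CPM in Control_1d, 88.7, 94.3 and 99.6 in IRR_1d, 104, 108, 48.8 and 96.3 in Control_6w and 175, 188, 229 and 224 in IRR_6w. Neither time showed overlap, and its change was 1.94 ± 0.37 with an edgeR adjusted p of 0.343 (0.000192 to 0.99997 over the alternatives tried). Control_6w replicate 3 was lowest of the controls for Col4a1, Nid2, Lama4 and Pxdn.

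Endothelial genes that bind leukocytes gave 3 of 22, all grown, against 1.98% of all genes that were higher, with medians of 0.03 and 0.49. The count was 8 of 22 without the 3 libraries with other-tissue transcripts, against 4.32% of all genes. Without those with many genes at 0 it was 2 of 22, against 1.14%, with medians of 0.10 and 0.28. Sele, the E-selectin that slows leukocytes on inflamed vessels, stayed under 10 CPM but lay at 4.998 to 9.86 CPM in IRR_6w against 0.0761 to 1.38 in Control_6w, and had a change of 3.32 ± 1.06. Icam1, which holds them firmly, measured 20.7, 16.01 and 18.1 CPM in Control_1d, 22.8, 17.6 and 27.4 in IRR_1d, 22.4, 18.5, 12.8 and 18.7 in Control_6w and 36.5, 36.4, 71.6 and 70.1 in IRR_6w. Its change was 1.26 ± 0.43, with overlap at 1 day and none at 6 weeks, and 0.61 without the libraries with many genes at 0.

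**Figure D4:**
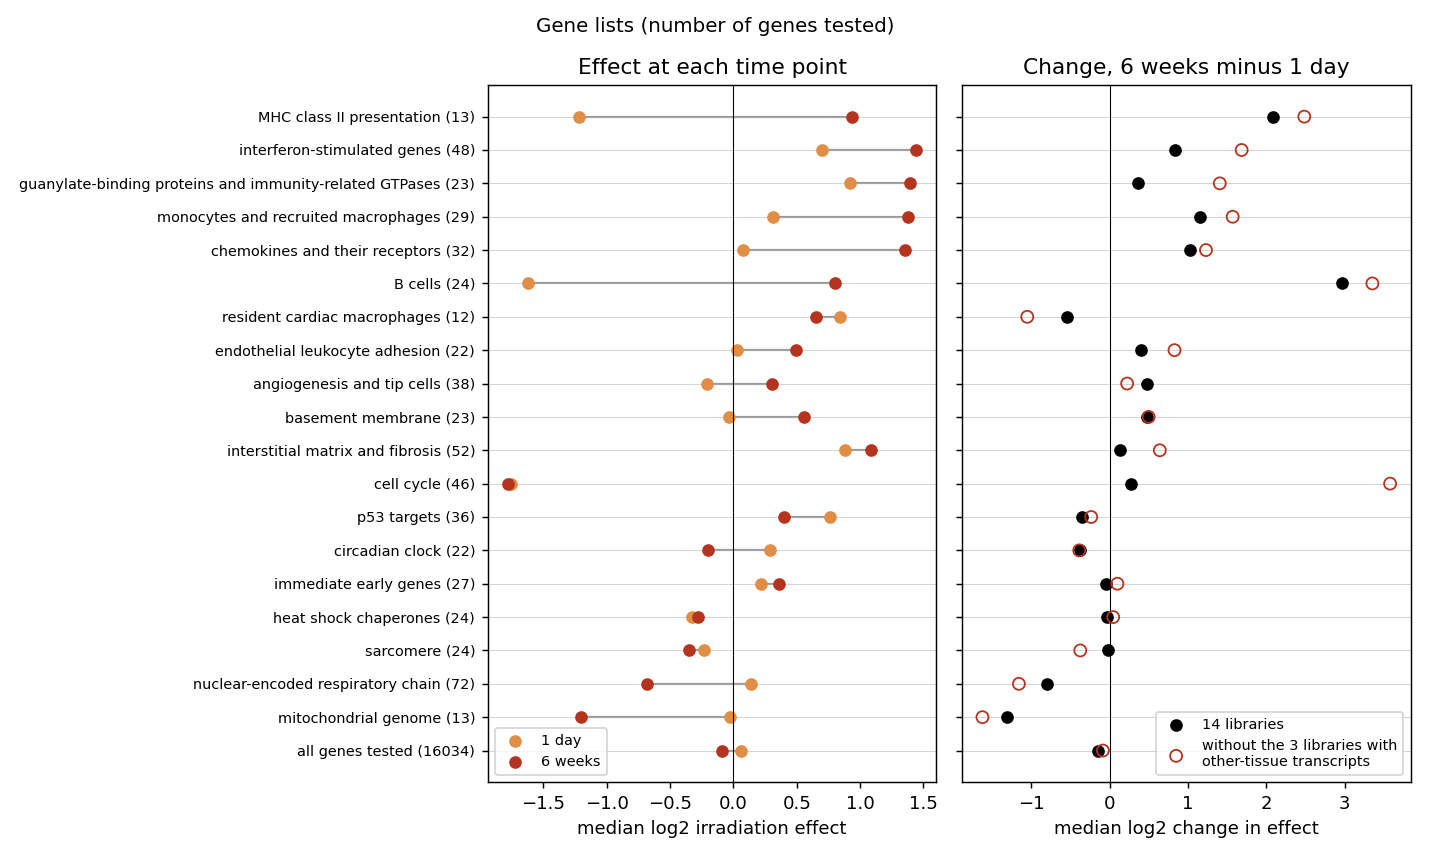
Median log2 irradiation effect of each gene list at 1 day and 6 weeks (left) and median change in effect with 14 libraries and without the 3 libraries with other-tissue transcripts (right), with the number of genes tested in parentheses. MHC class II and B cell genes cross 0 from left to right, mitochondrial genes move left, and the cell cycle list moves from 0.28 to 3.58 when the 3 libraries are left out.

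Matrix genes had an effect at 1 day that depended on a single library. The interstitial matrix and fibrosis list had a median effect of 0.88 at 1 day and 1.09 at 6 weeks, and the median change was 0.13. Of these genes 10 of 52 met the limits, all higher at 6 weeks (9 grown, 1 reversed), against 1.98% of all genes. Without IRR_1d replicate 3 the median effects were 0.10 and 1.08, the number was 18 and the median change 0.79, where 2.35% of all genes were higher. Without IRR_1d replicate 2 the number was 3 and the median change -0.05, where 235 of all 17033 genes tested were higher and 147 lower. With the 3 libraries with other-tissue transcripts left out the median effects were 0.09 and 0.90, with 19 of 52 higher against 4.32% of all genes, and without the 3 with many genes at 0 the number was 1, against 1.14%. IRR_1d replicate 3 measured 13356 CPM over the list against 5365 and 5444 in the other IRR_1d hearts and 5129 to 5294 in Control_1d.

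Sparc, a collagen-binding matrix protein, had a change of 1.46 ± 0.55, the short-chain collagen Col8a1 of 1.995 ± 0.77 (0.74 without the libraries with many genes at 0) and the aggrecan-cleaving protease Adamts4, which overlapped with control at both times, of 4.07 ± 1.51. Col1a1, a chain of fibrillar collagen, measured 105, 194 and 250.1 CPM in Control_1d, 245, 164 and 725 in IRR_1d, 125, 129.7, 62.8 and 169 in Control_6w and 255, 254, 409.9 and 346 in IRR_6w, a change of 0.33 ± 0.67, and Col3a1, of another fibrillar collagen, had a change of 0.96 ± 0.55. Without IRR_1d replicate 3 the changes were 1.22 and 1.69, and without IRR_1d replicate 2 they were -0.05 and 0.62. Postn, which marks activated fibroblasts, had 93.1, 86.7 and 539 CPM in IRR_1d, and its change was 1.36 ± 0.91 with all libraries, 2.76 without IRR_1d replicate 3, 0.904 without IRR_1d replicate 2, 3.35 without the 3 libraries with other-tissue transcripts and 0.09 without those with many genes at 0.

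Outside the lists, the genes that grew upward and were named for the smallest p were Adamts12, Svep1 and Trim16. Adamts12, a matrix protease, measured 22.3, 9.16 and 9.48 CPM in Control_1d, 10.9, 7.12 and 11.5 in IRR_1d, 1.598, 1.84, 3.25 and 3.91 in Control_6w and 11.8, 14.5, 18.4 and 18.4 in IRR_6w. Its change of 3.04 ± 0.62 came with controls that were lower at 6 weeks than at 1 day (-2.36) and irradiated groups that differed less (0.68). Svep1, a large adhesion protein of the vessel wall, measured 40.6, 21.5 and 36.4 CPM in Control_1d, 30.4, 36.3 and 49.95 in IRR_1d, 24.1, 23.03, 12.8 and 36.3 in Control_6w and 85.1, 89.8, 124 and 135 in IRR_6w and had a change of 1.93 ± 0.48. Trim16, a ubiquitin ligase of the damage response to lysosomes, had a change of 1.56 ± 0.3995. For these 3 genes the groups overlapped at 1 day and were apart at 6 weeks.

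Immediate early genes, which answer stimuli within minutes, were mixed. Their median change was -0.04, and 4 of 27 met the limits, all higher at 6 weeks, against 1.98% of all genes. The median was 0.10 without the 3 libraries with other-tissue transcripts and 0.47 without those with many genes at 0. In the second of these fits 2 of 27 met the limits as higher, against 1.14% of all genes. Nr4a3, an orphan nuclear receptor, measured 9.28, 14.4 and 5.93 CPM in Control_1d, 1.61, 2.23 and 5.15 in IRR_1d, 11.3, 11.1, 7.06 and 12.4 in Control_6w and 24.2, 11.1, 18.6 and 20.2 in IRR_6w and had a change of 2.54 ± 0.65, with no overlap at 1 day. Fosl2, an AP-1 subunit, had a change of 1.85 ± 0.49, Klf6, a zinc finger factor, of 1.37 ± 0.55 (0.47 without the libraries with many genes at 0), and Atf3, a stress factor, of 1.75 ± 0.74.

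Fading meant a difference at 1 day that was smaller at 6 weeks. Dcxr, an L-xylulose reductase, was the faded gene with the smallest p. It measured 3.82, 5.94 and 5.32 CPM in Control_1d, 26.7, 26.7 and 38.2 in IRR_1d, 5.78, 5.89, 7.12 and 6.13 in Control_6w and 10.3, 9.03, 5.597 and 5.46 in IRR_6w. The effect was 2.604 ± 0.37 at 1 day, which passed the edgeR test of that time point (adjusted p = 0.0316), and 0.28 ± 0.31 at 6 weeks, a change of -2.32 ± 0.48 with an adjusted p of 0.3702 (0.00328 to 0.99997 over the alternatives tried). The 3 IRR_1d hearts were above all 11 others. Pdk4, the kinase that shuts pyruvate out of the mitochondrial cycle when fat is burned, measured 2047, 2104 and 922 CPM in Control_1d, 445, 335 and 291 in IRR_1d, 548, 485, 625 and 304 in Control_6w and 517, 330.3, 796 and 732 in IRR_6w. It was lower in IRR_1d than in Control_1d without overlap, but Control_1d was above every other library and the remaining groups overlapped, and its change was 2.52 ± 0.55. From 1 day to 6 weeks the controls differed by -1.79 and the irradiated groups by 0.74.

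Slc38a2, an amino acid transporter, measured 433, 369.7 and 249.3 CPM in Control_1d, 147, 212 and 172 in IRR_1d, 365, 261, 353 and 338 in Control_6w and 269, 272, 640.2 and 665 in IRR_6w and had a change of 1.47 ± 0.50. The 2 highest values were in IRR_6w replicates 3 and 4, and without the 3 libraries with many genes at 0 the change was 0.53. Arhgap18, a GTPase-activating protein, and Dcaf12, a ubiquitin ligase receptor, were also lower than control without overlap at 1 day only, with changes of 1.18 ± 0.34 and 1.05 ± 0.38. Itpripl1, the membrane protein gene Palm and Nicn1, named for a tubulin-modifying complex, had effects above 0 at 1 day, without overlap except for Palm, and had changes of -1.21 ± 0.39, -1.24 ± 0.42 and -1.26 ± 0.43, the last -0.78 without the same libraries.

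**Figure D5:**
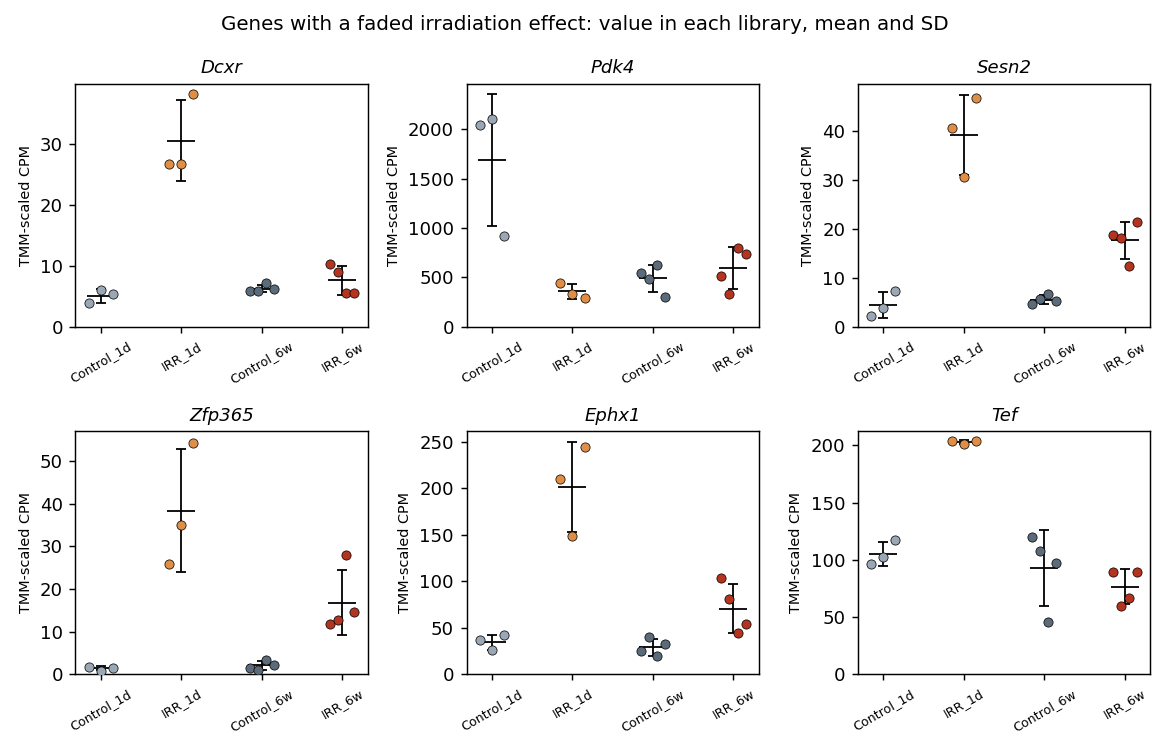
TMM-scaled CPM (vertical axes, from 0) of 6 genes with a faded effect in each library. Points are libraries, horizontal marks are means and bars are SDs. For Dcxr, Sesn2, Zfp365, Ephx1 and Tef the IRR_1d libraries lie above Control_1d, and for Pdk4 Control_1d lies above all other libraries.

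Targets of p53 had positive median effects at both times. The median was 0.76 at 1 day and 0.40 at 6 weeks. Changes above 0 made up 33.3% of the 36, against 41.4% of all genes tested. Of the 36, 4 met the limits as lower (11.1%, against 0.879% of all genes) and 1 as higher (2.78%, against 1.98%). Leaving out the 3 libraries with other-tissue transcripts gave medians of 0.74 and 0.89. The median change was then -0.23, against -0.35 with all libraries. There 16 of 36 changes were above 0, against 46.3% of all genes tested. Of the 36, 1 met the limits as lower and 3 as higher, against 1.24% and 4.32% of all genes. Without the 3 with many genes at 0 the medians were 0.81 and 0.43. Of the 36, 4 were lower and 0 higher there, against 0.568% and 1.14% of all genes. Sesn2, a stress protein that restrains growth signalling, measured 2.13, 3.73 and 7.32 CPM in Control_1d, 40.6, 30.6 and 46.7 in IRR_1d, 4.64, 5.59, 6.66 and 5.26 in Control_6w and 18.8, 18.2, 12.4 and 21.5 in IRR_6w. Its effect was 3.16 ± 0.43 and then 1.67 ± 0.35, a change of -1.49 ± 0.53 (edgeR adjusted p = 0.9903, and 0.182 to 0.99998 over the alternatives tried), and irradiated libraries were above controls without overlap at both times. Zfp365, a factor that limits damage at fragile sites, measured 1.82, 0.906 and 1.54 CPM in Control_1d, 25.9, 34.9 and 54.2 in IRR_1d, 1.598, 1.15, 3.304 and 2.29 in Control_6w and 11.9, 12.7, 28.05 and 14.6 in IRR_6w. Its effects of 4.73 ± 0.54 and 2.9996 ± 0.43 both passed their own edgeR test (adjusted p = 0.006696 and 0.0188), and the change was -1.73 ± 0.63, or -0.95 without the 3 libraries with other-tissue transcripts.

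Ephx1, an epoxide hydrolase of the same response, had a change of -1.26 ± 0.47 between effects of 2.53 ± 0.38 and 1.27 ± 0.31. Cdkn1a, the cell cycle inhibitor p21, measured 31.6, 57.99 and 23.2 CPM in Control_1d, 176, 183 and 255 in IRR_1d, 70.6, 72.9, 30.2 and 99.5 in Control_6w and 144, 244, 284 and 258 in IRR_6w. The groups were apart at both times, and the change was -0.68 ± 0.56 with an edgeR unadjusted p of 0.244. It was -1.16 without Control_1d replicate 2 and -0.44 without Control_6w replicate 4. Bax, which opens the mitochondrial membrane in cell death, had a change of -0.82 ± 0.54, or -1.56 without Control_1d replicate 3. Tnfrsf10b and Fas, both death receptors, went opposite ways, with changes of 1.79 ± 0.63 and -1.21 ± 0.48, the first 0.69 without the libraries with many genes at 0. Trp53inp1 was counted as reversed (-3.25 ± 1.29), but Control_6w replicate 3 alone held 583 CPM, and the change without that library was -0.83.

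Of 22 clock genes 5 met the limits, all lower at 6 weeks, against 0.879% of all genes. Without the 3 libraries with other-tissue transcripts 6 were lower, against 1.24% of all genes. Without the 3 with many genes at 0, 3 were lower and 1 higher, against 0.568% and 1.14%. Per2, a repressor of the clock, measured 2.82, 8.26 and 9.86 CPM in Control_1d, 22.8, 24.2 and 17.2 in IRR_1d, 30.1, 28.9, 10.8 and 28.5 in Control_6w and 21.3, 11.4, 7.57 and 22.9 in IRR_6w. It was higher in IRR_1d than in Control_1d without overlap and overlapped at 6 weeks, a change of -2.26 ± 0.69. Tef and Hlf, output factors of the clock, were also above control without overlap at 1 day only. Tef measured 96.7, 103 and 117 CPM in Control_1d, 204, 201 and 203 in IRR_1d, 120.2, 108, 45.7 and 97.6 in Control_6w and 89.2, 59.8, 66.8 and 89.4 in IRR_6w. Their changes were -1.23 ± 0.41 and -1.099 ± 0.42. From 1 day to 6 weeks the control groups themselves differed by -2.81 in log2 for Dbp, -2.31 for Nr1d1 and 1.36 for Arntl, while their changes in effect were -0.59 ± 1.202, 0.41 ± 0.99 and 0.21 ± 0.57. With 1 library left out the change of Dbp ran from -1.199 (without Control_1d replicate 3) to -0.18 (without IRR_6w replicate 3). The hour of collection was not given in the sources used here, and its part in these values was not tested.

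An E-box, CACGTG, is the element that the clock's activators bind, and Tef is shown because its window held one. It occurred in 5 of the 18 clock gene windows, against 7.15% of all windows. The last 150 bases before the start of Tef (chr15:81802523-81802672, plus strand, GRCm38.p6) carry it in capitals at 127 bases before the start.
Tef: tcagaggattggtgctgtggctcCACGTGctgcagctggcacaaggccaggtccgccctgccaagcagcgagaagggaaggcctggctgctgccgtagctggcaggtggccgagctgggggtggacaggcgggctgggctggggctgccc
The window of Hlf did not hold these letters.

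Among the genes with a lower effect at 6 weeks were several whose control groups differed between the times. Fam229b measured 1.13, 3.62 and 1.85 CPM in Control_1d, 3.93, 2.66 and 3.57 in IRR_1d, 74.2, 19.97, 31.7 and 5.39 in Control_6w and 2.19, 4.28, 3.37 and 2.28 in IRR_6w, a change of -4.07 ± 0.96, with a difference between the times of 3.91 in the controls and -0.16 in the irradiated groups. Odf2, a component of the sperm tail and of centrioles, measured 22.1, 19.2 and 25.2 CPM in Control_1d, 23.7, 20.7 and 22.5 in IRR_1d, 70.5, 149, 100.3 and 22.1 in Control_6w and 22.03, 24.03, 9.03 and 20.1 in IRR_6w and had a change of -2.19 ± 0.67. In both, and in Gm11837 (-4.82 ± 1.55), Control_6w replicates 1 to 3 were high and replicate 4 was the lowest of its group. Without Control_1d replicate 2 the change of Gm11837 was -7.34. The germ cell transcripts given above were high in the same 3 libraries, and their part in these values was not tested. Cyp26b1, which degrades retinoic acid, was different. It measured 1.94, 7.05 and 4.55 CPM in Control_1d, 76.1, 178 and 6.94 in IRR_1d, 11.2, 13.5, 11.8 and 18.8 in Control_6w and 3.68, 3.61, 0 and 0 in IRR_6w, with the irradiated libraries below controls at 6 weeks and 2 of 3 far above them at 1 day, a change of -7.202 ± 1.75.

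The ribosomal protein genes Rps3a1 and Rps27a had changes of -1.22 ± 0.45 and -1.46 ± 0.56, the second -0.89 without Control_6w replicate 3, which was the highest library for both (1148 and 277 CPM). For Rps3a1 the irradiated libraries lay above controls at 1 day and below them at 6 weeks without overlap. Both have processed copies elsewhere in the genome, so reads may have been split or lost between copies. Gm37174, also among the reversed genes, had 0 counts in all of Control_1d and at most 1.31 CPM anywhere, and no fold is given for it. In all, 28 of the 458 genes had 0 counts in a whole group.

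No gene of the respiratory chain met the limits, although nearly all had changes below 0. Of all genes tested, 41.4% had a change above 0. None of the 13 protein-coding genes of the mitochondrial genome had a change above 0, and the median effect went from -0.03 to -1.20, a median change of -1.31. The medians were -0.47 and -0.94 and the median change -0.51 without the 3 libraries with many genes at 0. For mt-Cytb, which encodes cytochrome b, the change was -1.31 ± 0.93, with the irradiated libraries below all controls at 6 weeks and overlap at 1 day, and the change was -0.85 without Control_1d replicate 1 and -0.34 without the 3 libraries. Mitochondrial counts made up 20.3% to 44.2% of Control_1d libraries against 28.1% to 40.2% of IRR_1d, and 22.3% to 30.3% of Control_6w libraries against 10.4% to 22.2% of IRR_6w. Nuclear genes of the respiratory chain showed the same direction, with 3 of 72 changes above 0 and a median effect that went from 0.14 to -0.68. The markers of ventricular cardiomyocytes had a median change of -0.65, with 2 of 9 above 0. Without the 3 libraries with other-tissue transcripts it was -1.01 with 0 of 9 above 0, against 46.3% of all genes tested. Without those with many genes at 0 it was -0.13. At 1 day their summed level was 27219 to 47103 CPM in controls, where irradiated hearts had 17401 to 39252. At 6 weeks controls reached 5268 to 49876 CPM, again overlapping with the 8021 to 34377 CPM of irradiated hearts. Their part in the respiratory chain values was not tested. The sarcomere list had 0 of 24 genes within the limits and a median change of -0.02, and the ion channel list 0 of 34 and 0.19. Without the 3 libraries with other-tissue transcripts these medians were -0.37 and -0.17, and 7 of 72 respiratory chain genes met the limits, all lower, against 1.24% of all genes, and without those with many genes at 0, none did and the median change was -0.25.

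Cell cycle genes depended on a single library. With all 14 libraries 1 of 46 met the limits as higher, against 1.98% of all genes, and the median effects were -1.76 and -1.78. Control_6w replicate 3, which held thymus transcripts, had 3909 CPM over the list against 260 to 319 in the other Control_6w hearts. Without it 27 of 46 met the limits, all higher at 6 weeks, where 3.29% of all genes did, and the median change was 3.31. Mki67, the proliferation marker, measured 9.09, 10.47 and 19.95 CPM in Control_1d, 1.42, 1.29 and 1.72 in IRR_1d, 9.06, 8.72, 694 and 14.4 in Control_6w and 23.9, 47.9, 16.7 and 24.5 in IRR_6w. Its change was 0.47 ± 1.68 with all libraries, 4.55 without Control_6w replicate 3 and 4.74 without the 3 libraries, where it passed the edgeR test (adjusted p = 0.0343, and 0.0337 to 0.99998 over the alternatives tried). Top2a, the topoisomerase of dividing cells, had a change of 1.14 ± 1.6998 and, without the 3 libraries, of 5.11. Genes of T and NK cells gave a median change of -0.47 with all libraries and 2.75 without Control_6w replicate 3.

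The 21 genes that the study itself singled out from these libraries had median effects of 1.09 at 1 day and 1.63 at 6 weeks. None met the limits for a change, which is not independent evidence in either direction since the list was drawn from the same samples. Ifi204, an interferon-induced DNA sensor, measured 7.33, 12.9 and 12.1 CPM in Control_1d, 13.02, 20.1 and 42.1 in IRR_1d, 10.50, 12.2, 10.2 and 12.9 in Control_6w and 34.3, 58.8, 74.5 and 63.2 in IRR_6w and had a change of 1.11 ± 0.53, with irradiated libraries above controls at both times, or 1.71 without IRR_1d replicate 3 and 1.84 without the 3 libraries with other-tissue transcripts. Fat1, an atypical cadherin, had nearly equal effects of 1.42 ± 0.35 and 1.66 ± 0.303. Without the 3 libraries with other-tissue transcripts 6 of the 21 met the limits, all higher at 6 weeks, against 4.32% of all genes, and without those with many genes at 0, 1 did, against 1.14%, and the median change was 0.14.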

How the data were processed

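Total RNA was extracted with TRIzol from the hearts of 14 mice, treated with DNase and sequenced as 150-bp paired-end reads on an Illumina HiSeq. The authors trimmed reads with Trim Galore 0.6.1 after FastQC 0.11.8, aligned them with STAR 2.5.0a to mm10 and counted them per gene with HTSeq. The deposited table holds raw counts, with gene names and coordinates, and 0 columns of values per sample were left out. The strand setting of the counting was not given in the sources used here, so reads of a gene and of an overlapping antisense gene cannot be told apart, and genes with near-identical copies may have lost or shared reads.

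From these counts, edgeR 4.0.16 in R 4.3.3 (filterByExpr, TMM scaling, quasi-likelihood test) fitted 1 model of 4 groups to all 14 libraries, which leaves 10 residual degrees of freedom and adjusts p over 16034 genes. The limits were a fold over 2 and p under 0.05, with both effects at least 0.5 in log2 for a reversal. Per class and direction, up to 5 genes with the smallest p in every leave-one-out fit were named, with up to 4 genes of each list that had at least 3 members within the limits and the genes the study singled out. Some genes that this rule names are not reported here. The genes, lists and limits were chosen with earlier results of these data known. Totals of 13336746 to 16837265 counts per library limit the precision of genes at a few CPM. Errors are SEs of the fit. Alternatives were DESeq2 1.42.0, limma-voom (limma 3.58.1) with and without quality weights, robust dispersion, other scaling and filters, a replicate block and left-out libraries. The model code was tested on simulated data. Promoter windows are RefSeq sequences of GRCm38.p6.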

Additional observations from a re-analysis of the deposited data

Results flagged for a closer look

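Genes and list sums were checked within Control_6w and within IRR_6w, 226 checks of 4 values each. In 32 a library at one end had a gap to its nearest neighbour above Dixon's critical value for 4 samples, as a share of the range. That value stands for about 1 in 20 with independent, normally distributed values. The checks used CPM of the same libraries again and again, so the 32 were not compared with that share. Groups of 3 libraries were not checked. Most of the libraries concerned were Control_6w replicate 3 and IRR_6w replicate 1.

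Control_6w replicate 3 was highest of its group in the summed CPM of MHC class I genes (2255), monocyte genes (1311), B cell genes (824), T and NK cell genes (3515) and cell cycle genes (3909). It was lowest in angiogenesis genes (1428), endothelial adhesion genes (1555) and ion channel genes (3614). Among single genes it was highest for Ighd (5.70 CPM), Fas (39.8), Rps3a1 (1148), Mki67 (694), Top2a (473), Angptl4 (97.8) and Trp53inp1 (583), and lowest for Nicn1 (16.5) and Per2 (10.8). The thymus transcripts of this library were given above, and their part in each of these values was not tested.

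IRR_6w replicate 1 was highest of its group in B cell genes (990.4 CPM), T and NK cell genes (69.3) and neutrophil genes (145) and lowest in ion channel genes (7022). It was also highest for Ighd (8.63), Gm11837 (2.99), Slc4a1 (81.9) and Hba-a1 (26092) and lowest for H2-Eb1 (130.1) and Col4a2 (305). The other single libraries were Control_6w replicate 2 for H2-Aa (118), Control_6w replicate 1 for Esm1 (4.49), IRR_6w replicate 2 for the class II sum (1449) and the glycolysis sum (8418), and IRR_6w replicate 3 for Zfp365 (28.0).

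In 8 of the genes examined, every irradiated library lay on one side of every control at 1 day and on the other side at 6 weeks. The share of all genes tested with this order was not counted, so the 8 describe the genes examined only. The log2 change was 2.79 for H2-Eb1, 2.499 for H2-Aa, 2.17 for Cd74, 2.16 for H2-Ab1, 1.94 for Pxdn, 5.83 for Slc4a1, 6.36 for Esm1 and -1.22 for Rps3a1. With all 14 libraries and the filterByExpr filter, the edgeR test of the difference itself did not pass at adjusted p for any of them. The smallest value there was 0.0673 for H2-Eb1. DESeq2 passed 7 of the 8, all except Rps3a1, and edgeR passed H2-Eb1, H2-Aa, Esm1 and Slc4a1 when no count filter was used. At a mean CPM of at least 5, edgeR passed H2-Eb1 (adjusted p = 0.0411) and H2-Aa (0.0486).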

How the results depend on the processing

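The number of genes at adjusted p was 0 in edgeR and rose to 43 with DESeq2, 18 with limma-voom and quality weights, 9 without a count filter, 2 at a mean CPM of at least 5 and 29 without the 3 libraries with other-tissue transcripts. With 1 library left out it ran from 0 to 3, with the 3 genes found when Control_6w replicate 3 was omitted, 2 when IRR_6w replicate 1 was and 1 when Control_1d replicate 2 was. The number at unadjusted p, 458, was 968 with limma-voom, 2218 with quality weights, 1181 without a filter, 885 without the 3 libraries with other-tissue transcripts and 283 without the 3 with most genes at 0. It ran from 328 without IRR_1d replicate 1 to 894 without Control_1d replicate 3, and was 762 without IRR_6w replicate 1. Of the 885 genes 321 were among the 458, and of the 283 genes 161.

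Reversed genes, 237 in edgeR, numbered 656 with limma-voom, 1121 with quality weights, 871 without a filter, 139 at a mean CPM of at least 5, 456 without the 3 libraries with other-tissue transcripts and 126 when both effects had to be at least 1, and 172 to 491 with 1 library left out (419 without IRR_6w replicate 1). Grown genes, 169, numbered 953 with quality weights, 374 and 87 without either set of 3 libraries, and 92 to 359 with 1 left out, the lowest without IRR_1d replicate 1 and the highest without IRR_6w replicate 2. Faded genes, 52, numbered 138 and 144 with limma-voom without and with weights, 97 without a filter, 29 without the 3 libraries with most genes at 0 and 100 at the stricter reversal limit, and 28 without Control_1d replicate 1 to 265 without Control_1d replicate 3. The cause of these differences was not tested.

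Of 83 genes named, 7 had a change of the other sign in some setting, all with a change that missed the limits except Gapdh. Dbp had 0.278 without the 3 libraries with most genes at 0. Nr1d1 had -0.544 with limma-voom, -0.754 with quality weights and -0.193 without the 3 libraries with other-tissue transcripts, and Arntl -0.163 with limma-voom. With 1 library left out, the change ran from -0.0511 to 1.22 for Col1a1, -0.23 to 0.79 for Nr1d1, -0.38 to 0.63 for Arntl, -0.00498 to 0.57 for Fat1, -0.0147 to 4.55 for Mki67 and -0.0577 to 3.82 for Gapdh, the last 2 lowest without Control_1d replicate 3.

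With the replicate number as a block (replicate block), 0 genes passed at adjusted p and 342 met the limits, of which 177 reversed, 126 grew and 39 faded, and Nr1d1 had -0.510 and Arntl -0.0181. The numbers do not pair the libraries: deviations of same-numbered control and irradiated libraries correlated between -0.405 and 0.508, and 2 of 7 libraries matched their own number best.

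The limits are those of few animals and uneven libraries. Groups of 3 or 4, libraries with transcripts of other tissues in each of 3 groups and libraries with many genes at 0 in 2 groups leave wide errors for genes at a few CPM. Differences between control groups taken at different times enter every change in effect.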

Other observations

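Red cell genes had large changes, with the highest levels in few libraries. Of 7 erythroid genes 6 reversed, all higher at 6 weeks, against 1.98% of all genes that met the limits as higher, with a median change of 5.05. Without the 3 libraries with other-tissue transcripts 4 of 7 met the limits (4.32% of all genes), and without the 3 with many genes at 0 all 7 did (1.14%). Slc4a1, the anion exchanger of red cells, measured 10.97, 8.56 and 26.3 CPM in Control_1d, 1.55, 1.03 and 4.49 in IRR_1d, 4.19, 3.14, 2.96 and 1.75 in Control_6w and 81.9, 13.1, 4.898 and 6.79 in IRR_6w. At 6 weeks IRR_6w replicate 1 stood highest. The summed level was 4820.2, 2931 and 33682 CPM in Control_1d, 6066, 3827 and 10213 in IRR_1d, 3489, 2999.6, 4461 and 2112 in Control_6w and 63076, 11844, 2568 and 2400.4 in IRR_6w, and the blood left in each heart was not measured.

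Gapdh, an enzyme of glycolysis that is often taken as a constant reference, measured 5.27, 3.32 and 118 CPM in Control_1d, 6.12, 4.89 and 4.36 in IRR_1d, 5.18, 5.89, 3.76 and 4.31 in Control_6w and 4.89, 5.5999, 2.799 and 9.22 in IRR_6w. These levels are low for this gene, and near-identical copies in the genome make its counts uncertain. Its change of 3.28 ± 1.25 became -0.06 without Control_1d replicate 3.

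Angptl4, a secreted inhibitor of lipoprotein lipase, measured 36.6, 37.3 and 16.7 CPM in Control_1d, 7.54, 3.605 and 31.3 in IRR_1d, 5.71, 5.28, 97.8 and 3.57 in Control_6w and 95.8, 20.95, 53.4 and 50.7 in IRR_6w. Its change was 2.06 ± 1.45 with all libraries, 4.60 without Control_6w replicate 3, 3.39 without IRR_1d replicate 3 and 5.53 without the 3 libraries with other-tissue transcripts, where the edgeR adjusted p was 0.02499 (0.009301 to 0.99998 over the alternatives tried). White fat genes, which were summed as markers, were also high in the Control_6w library with the highest Angptl4 value (539 CPM), in IRR_1d replicate 3 (508) and in IRR_6w replicate 1 (1337), and their part in this gene's values was not tested.

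Heat shock chaperones, which refold damaged proteins, had a median change of -0.03, and 2 of 24 met the limits as higher at 6 weeks, against 1.98% of all genes. The median was 0.05 without the 3 libraries with other-tissue transcripts, with 3 higher and 1 lower, against 4.32% and 1.24% of all genes. Without those with many genes at 0 it was -0.12, with 0 of 24 higher, against 1.14%. Their summed level was lower in irradiated hearts at 1 day in every library (6384, 6720.4 and 6348 CPM in Control_1d and 5393, 5219.9 and 4698 in IRR_1d) and overlapped at 6 weeks (10426, 12740.3, 8162 and 10726 CPM in Control_6w and 6248, 8613, 7017 and 11174 in IRR_6w).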
